A study of Rattus norvegicus with 20 samples.

Results

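The genes described here encode the enzymes and receptors that turn arachidonic acid into prostaglandins, thromboxane and leukotrienes and that sense these products in blood. They were taken by name (Ptgs1, Ptgs2, Ptges, Tbxas1, Alox5, Alox5ap, Alox15, Lta4h, Ltb4r and Ptger4), as the probe sets to which the platform annotation gives exactly 1 gene symbol equal to one of these names. All 10 genes were found, on 12 of 31042 probe sets and among 14217 gene symbols, with 2 probe sets each for Ptgs1 and Ptges and 1 for each of the others. Blood RNA of male Wistar rats of 180 to 200 g, an outbred strain, was hybridized to 20 Affymetrix Rat Genome 230 2.0 arrays, with 5 arrays in each of 4 groups. The susceptible postdose and resistant postdose arrays held blood drawn 24 h after 1 oral dose of 1200 mg/kg acetaminophen (APAP), given in carboxymethyl cellulose sodium after a fast of 12 h that went on for 2 h. The susceptible predose and resistant predose arrays held blood that, by the methods, was drawn from the same rats 1 week before the dose. Susceptible and resistant rats were those with the 5 highest and the 5 lowest serum alanine transaminase values at 24 h among the dosed rats, so that the names describe the liver response and not a genotype, and the choice is known only after dosing. All rats were anaesthetized with chloral hydrate for bleeding, the age of the rats is not given in the sources used here, and no array held blood of a vehicle-treated rat. Predose blood came from the retro-orbital plexus and, by the methods, postdose blood from the inferior vena cava, whereas the labels name the retro-orbital plexus for both, so that APAP, fasting, the day and possibly the bleeding site cannot be told apart in a postdose change.

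Arachidonic acid, freed from membranes by phospholipases, is taken up either by the cyclooxygenases, which make prostaglandin H2, or by lipoxygenases. Terminal synthases turn prostaglandin H2 into prostaglandin E2 or into thromboxane, the platelet agonist. The 5-lipoxygenase branch, which is largely confined to myeloid cells, leads through leukotriene A4 to leukotriene B4, a chemoattractant for neutrophils.

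The promoters of 4 of the 5 genes that rose after APAP are shown because these genes moved in the same direction in susceptible rats. RefSeq promoter windows of build GRCr8, from 250 bases before to 50 bases after the gene start, were at hand for 8 of the 10 genes, not for Alox5ap and Alox15. Capitals mark matches, on either strand, to 8 motifs searched: GC box GGGCGG, E-box CACGTG, CRE TGACGTCA, AP-1 TGANTCA, C/EBP TTATGCAAT, TATA box TATAAA, PU.1 GAGGAAGT and STAT TTCNNNGAA. Each sequence runs 5′ to 3′ on the gene's own strand.
Ptgs2, chr13:64713813-64714112, plus strand: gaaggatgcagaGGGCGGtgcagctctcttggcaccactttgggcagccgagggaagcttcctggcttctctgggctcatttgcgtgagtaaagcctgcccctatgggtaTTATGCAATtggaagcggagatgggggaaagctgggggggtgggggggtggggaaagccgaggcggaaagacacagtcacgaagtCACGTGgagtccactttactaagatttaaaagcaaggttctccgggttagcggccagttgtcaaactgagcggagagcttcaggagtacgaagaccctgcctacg
Alox5, chr4:151251077-151251376, minus strand: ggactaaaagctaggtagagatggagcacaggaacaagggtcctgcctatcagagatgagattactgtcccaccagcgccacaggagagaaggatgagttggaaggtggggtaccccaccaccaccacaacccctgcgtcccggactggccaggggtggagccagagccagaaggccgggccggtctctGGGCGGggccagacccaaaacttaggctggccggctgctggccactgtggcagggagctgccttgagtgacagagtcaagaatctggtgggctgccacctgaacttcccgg
Lta4h, chr7:29856621-29856920, plus strand: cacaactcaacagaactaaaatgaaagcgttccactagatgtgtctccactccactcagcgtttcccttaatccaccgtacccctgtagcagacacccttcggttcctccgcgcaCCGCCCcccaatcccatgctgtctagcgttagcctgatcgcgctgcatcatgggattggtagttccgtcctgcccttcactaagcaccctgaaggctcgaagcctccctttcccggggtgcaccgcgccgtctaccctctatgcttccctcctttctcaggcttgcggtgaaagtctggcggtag
Ltb4r, chr15:33232870-33233169, plus strand: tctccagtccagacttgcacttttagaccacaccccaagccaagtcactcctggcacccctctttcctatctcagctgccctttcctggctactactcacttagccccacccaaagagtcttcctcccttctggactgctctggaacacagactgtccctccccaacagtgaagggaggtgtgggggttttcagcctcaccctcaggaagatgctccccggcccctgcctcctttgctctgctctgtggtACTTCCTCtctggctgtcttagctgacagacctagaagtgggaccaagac

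The Ptgs2 window held a GC box whose first base lay at -238 from the gene start, a C/EBP match at -140 and an E-box at -55. The windows of Alox5 and Lta4h held a GC box at -61 and at -135, and that of Ltb4r a PU.1 match, in the reverse orientation, at its first transcribed base. The GC box was found in 33.1% of 33469 promoter windows of the same length, the E-box in 6.42%, the PU.1 match in 2.42% and the C/EBP match in 0.155%. CRE, AP-1, TATA box and STAT letters, present in 1.83%, 7.33%, 14.2% and 8.87% of all windows, were in none of the 4 windows printed. Genes that did not rise held such matches too. PU.1 letters were in the windows of Ptgs1, at -102, and Ptger4, at -166. A GC box was in that of Ptges, at -87, and AP-1 and TATA box letters were in that of Tbxas1. A match is a description of the letters in the window and not of a site in use.

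Signals are intensities scaled so that the median of each array is 1000. Blood was recognizable in every group: 12 of 12 T cell, 5 of 5 B cell and 10 of 10 platelet markers averaged at or above the array median in all 4 groups, and so did 5 of 5 erythroid markers, although red cells had been lysed. The 10 neutrophil markers summed to between 847700 and 1228000 on susceptible postdose arrays and between 500100 and 670000 on susceptible predose arrays, and to between 827300 and 1027000 on resistant postdose arrays and between 507600 and 715200 on resistant predose arrays. The sums did not overlap between postdose and predose arrays of either sub-group, and 8 of the 10 markers averaged at or above the array median in each group. Most of each sum came from S100a9 and S100a8, with mean signals of 512100 and 309900 on susceptible postdose arrays, so it does not speak for all 10 markers. Camp averaged lower postdose than predose in both sub-groups, Lcn2 in susceptible rats only and Mmp8 in resistant rats only, while the other markers averaged higher. The mean log2 signal of Camp was 12.55 postdose and 12.8 predose in susceptible rats, and 11.96 and 12.86 in resistant rats. The 6 hepatocyte markers summed to 16420 and 25770 on susceptible postdose arrays 1 and 3, against 6112 or less on every other array. In bulk blood, more cells of a type and more RNA per cell cannot be told apart.

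After APAP, 5 of the 12 probe sets rose in susceptible rats and none fell: those of Ptgs2, Alox5, Alox5ap, Lta4h and Ltb4r, by 1.63-fold to 6.40-fold. In resistant rats 2 rose, Alox5ap and Ltb4r, and none fell. Thus the genes that rose in either sub-group were Ptgs2 and 4 genes of the leukotriene B4 branch. The probe sets of Ptgs1, Ptges, Tbxas1, Alox15 and Ptger4 did not pass in either sub-group. A gene was taken to rise or fall at a limma adjusted p under 0.05 over all 30747 probe sets tested, two-sided. Among these, 6.66% passed in susceptible rats (3.86% upward) and 5.11% in resistant rats (2.51% upward). The median change of the 12 probe sets was 0.48 on the log2 scale in susceptible rats, against 0.01 over all probe sets, and -0.06 in resistant rats, against -0.01 over all probe sets.

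**Figure D1:**
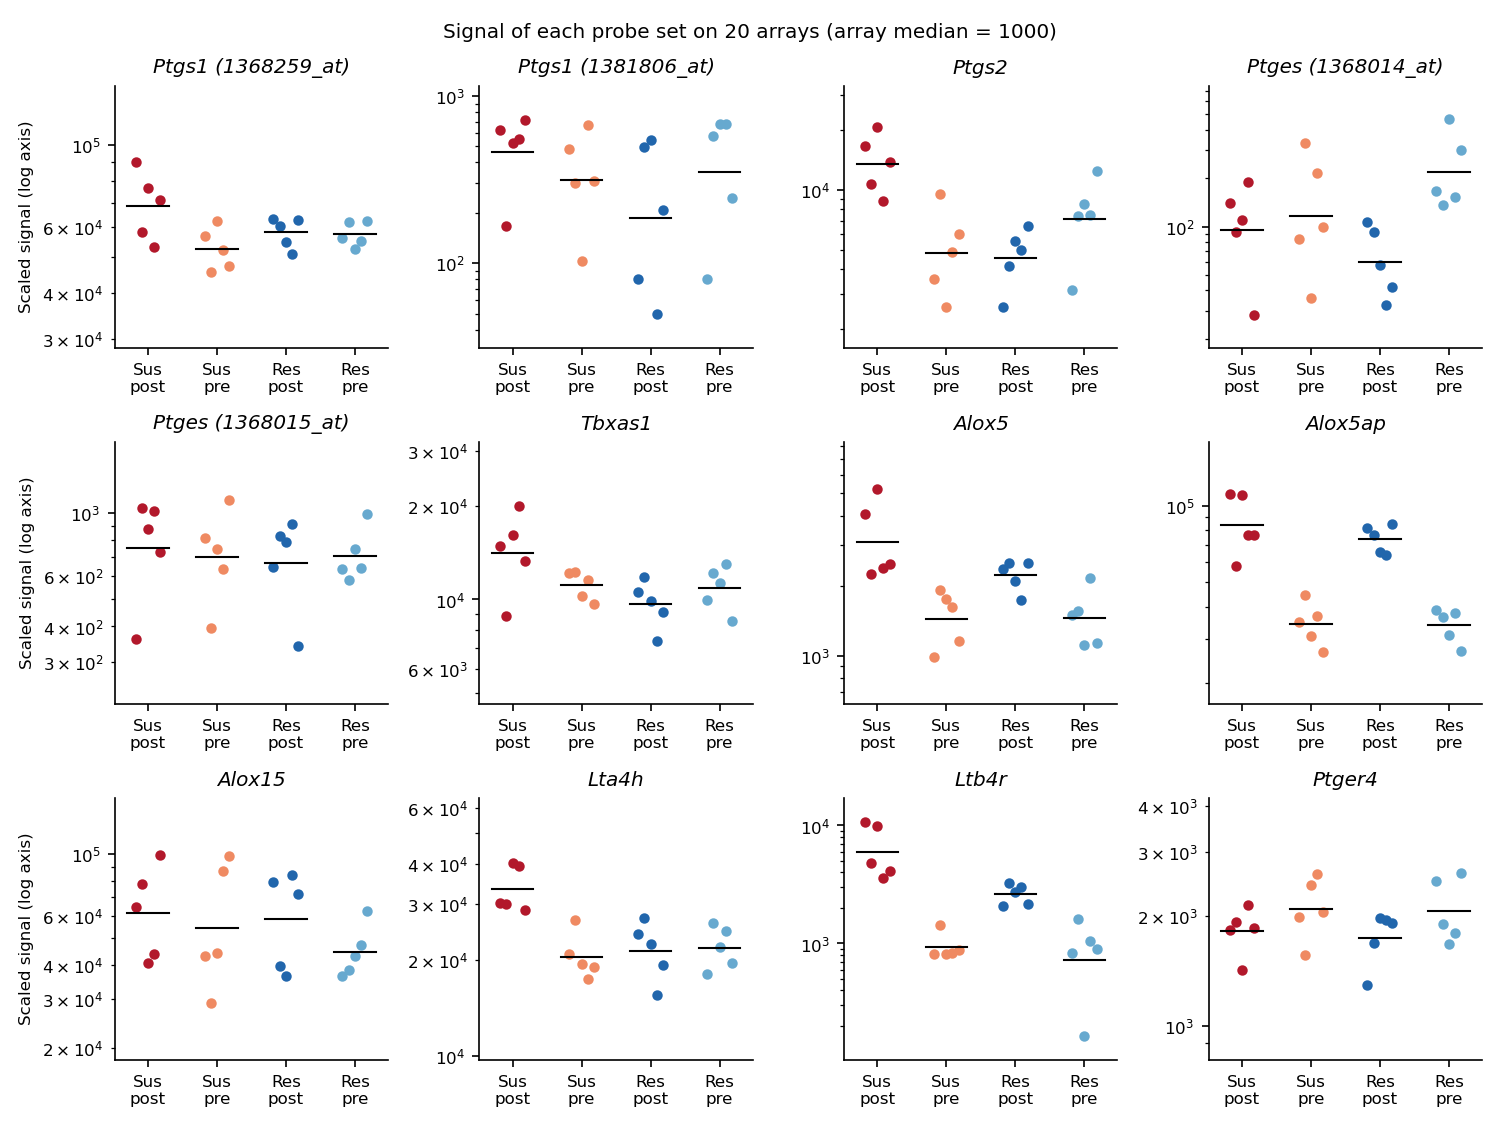
Scaled signal (log axis) of the 12 probe sets on 20 arrays, with susceptible (Sus) and resistant (Res) rats after (post) and before (pre) APAP. Points are arrays in the order of their replicate number, and the bar is the geometric mean of 5 arrays. For Alox5ap and Ltb4r all postdose points lie above all predose points in both sub-groups, and for Ptgs2, Lta4h and Ltb4r the susceptible postdose points lie above all resistant postdose points.

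Ptgs2 encodes cyclooxygenase-2, the inducible cyclooxygenase. Its signals on susceptible postdose arrays 1 to 5 were 16680, 10700, 20770, 8745 and 13790, against 3557, 9502, 2567, 4885 and 5982 on susceptible predose arrays. On resistant postdose arrays they were 2571, 4144, 5543, 5012 and 6584, against 3133, 7395, 8524, 7509 and 12400 on resistant predose arrays. All susceptible postdose arrays but array 4 lay above every susceptible predose array, and predose array 2 was the one that reached into their range. In resistant rats predose arrays 2 to 5 lay above every postdose array, and predose array 1 lay within the postdose range. Ptgs2 rose 2.81-fold in susceptible rats (log2 difference 1.49, SE 0.38, limma adjusted p = 0.0245). The log2 difference in resistant rats was -0.65 (95% interval -1.45 to 0.16, limma adjusted p = 0.431). The susceptible call was lost when susceptible predose array 1 or 3 or susceptible postdose array 1, 3 or 5 was left out, with log2 differences of 1.27 to 1.48 and limma adjusted p of 0.0502 to 0.0734.

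Ptgs1, cyclooxygenase-1, is the constitutive cyclooxygenase and supplies platelets with the precursor of thromboxane. On probe set 1368259_at its signals were 90330, 58350, 76670, 53150 and 71060 on susceptible postdose arrays 1 to 5, against 57020, 45320, 62390, 52140 and 47150 on susceptible predose arrays. Resistant rats had 63320, 60630, 54810, 50720 and 62900 on postdose arrays, against 56250, 61920, 52490, 54960 and 62550 on predose arrays. The groups overlapped in both sub-groups, with susceptible postdose arrays 1, 3 and 5 above all predose arrays. The log2 differences were 0.39 in susceptible rats (SE 0.14, limma adjusted p = 0.104) and 0.02 in resistant rats (SE 0.14, limma adjusted p = 0.97). Without susceptible postdose array 4 the susceptible difference was 0.48 and passed (limma adjusted p = 0.0328). The other probe set, 1381806_at, lay below the array median on all 20 arrays, with 49.82 to 716, and on 7 of them at or below 279, the highest signal of the bacterial trp probe sets that serve as negative controls. Its log2 differences, 0.56 in susceptible rats and -0.90 in resistant rats, had 95% intervals of -0.99 to 2.11 and -2.45 to 0.65.

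Tbxas1, thromboxane A synthase, had signals of 14810, 8882, 16140, 20050 and 13330 on susceptible postdose arrays 1 to 5, against 12160, 12250, 10280, 11540 and 9643 on susceptible predose arrays. Resistant postdose arrays 1 to 5 gave 10570, 11840, 9902, 7381 and 9094, against 9963, 12140, 11310, 13020 and 8513 on resistant predose arrays. Of the susceptible postdose arrays, 4 lay above all susceptible predose arrays and array 2 lay below them all. The log2 differences were 0.35 in susceptible rats (95% interval -0.04 to 0.74, limma adjusted p = 0.334) and -0.17 in resistant rats (95% interval -0.56 to 0.22, limma adjusted p = 0.722). The 10 platelet markers summed to between 1717000 and 2359000 on susceptible postdose arrays and between 1482000 and 1867000 on susceptible predose arrays, and to between 1440000 and 2019000 on resistant postdose arrays and between 1610000 and 1831000 on resistant predose arrays. Of these markers only Selp, P-selectin, rose in susceptible rats (log2 difference 0.69, limma adjusted p = 0.00793), and none passed in resistant rats.

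Ptges encodes the inducible microsomal prostaglandin E synthase, and its first probe set was measured near the background. Probe set 1368014_at lay at or below the highest trp signal on 17 of 20 arrays and under 100 on 9. It gave 106.3, 93.01, 57.75, 32.68 and 41.94 on resistant postdose arrays 1 to 5, against 166.8, 136.2, 467.8, 152.5 and 298.4 on resistant predose arrays. These 2 groups did not overlap, yet the log2 difference of -1.85 (95% interval -3.09 to -0.62) did not pass (limma adjusted p = 0.0837). Susceptible rats gave 28.07 to 187.9 on postdose arrays and 36.1 to 330.8 on predose arrays, a log2 difference of -0.30 (95% interval -1.54 to 0.94). Probe set 1368015_at gave 342.9 to 1103 over the 20 arrays, and its log2 differences were 0.11 in susceptible rats and -0.08 in resistant rats, with 95% intervals of -0.57 to 0.79 and -0.76 to 0.60. The 2 probe sets of Ptges thus gave different values for the resistant postdose change, and only 1368014_at separated the groups.

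Ptger4, the EP4 receptor for prostaglandin E2, had signals of 1834, 1935, 1426, 2146 and 1863 on susceptible postdose arrays 1 to 5, against 1988, 1571, 2437, 2602 and 2056 on susceptible predose arrays. On resistant arrays it had 1295, 1689, 1974, 1957 and 1915 postdose, against 2494, 1909, 1683, 1796 and 2632 predose. The groups overlapped in both sub-groups. The log2 differences were -0.20 in susceptible rats (95% interval -0.56 to 0.16) and -0.25 in resistant rats (95% interval -0.60 to 0.11), with limma adjusted p of 0.59 and 0.528.

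Alox5 encodes 5-lipoxygenase, which makes leukotriene A4. Its signals were 4085, 2250, 5185, 2387 and 2485 on susceptible postdose arrays 1 to 5, against 991.5, 1918, 1746, 1622 and 1153 on susceptible predose arrays. On resistant postdose arrays 1 to 5 they were 2351, 2500, 2105, 1740 and 2512, against 1500, 1563, 1108, 2156 and 1132 on resistant predose arrays. Every susceptible postdose array lay above every susceptible predose array, with arrays 1 and 3 the highest, whereas resistant predose array 4 lay above resistant postdose arrays 3 and 4. Alox5 rose 2.15-fold in susceptible rats (log2 difference 1.10, SE 0.25, limma adjusted p = 0.0127). This call was lost with a replicate block (limma adjusted p = 0.0611) and with only the arrays compared (limma adjusted p = 0.0797). It was lost too with the methods' t-test and adjustment (adjusted p = 0.122). The resistant log2 difference was 0.62 (SE 0.25, 95% interval 0.09 to 1.15) and did not pass (limma adjusted p = 0.201).

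Alox5ap encodes the 5-lipoxygenase activating protein, which presents arachidonic acid to the enzyme. It gave 111600, 57870, 110600, 76770 and 76920 on susceptible postdose arrays 1 to 5, against 34870, 44380, 30750, 36820 and 26490 on susceptible predose arrays. Resistant postdose arrays gave 81750, 77110, 65900, 63750 and 84460, against 38850, 36350, 30900, 37780 and 26740 on resistant predose arrays. All 10 postdose arrays lay above all 10 predose arrays. Alox5ap rose 2.46-fold in susceptible rats (log2 difference 1.30, SE 0.18, limma adjusted p = 0.000332) and 2.19-fold in resistant rats (log2 difference 1.13, SE 0.18, limma adjusted p = 0.00116).

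Lta4h, leukotriene A4 hydrolase, makes leukotriene B4. Susceptible postdose arrays 1 to 5 had 30200, 29870, 40220, 39270 and 28540, against 20780, 26690, 19440, 17400 and 18900 on susceptible predose arrays. Resistant postdose arrays had 24130, 27060, 22440, 15490 and 19260, against 18040, 25990, 21920, 24690 and 19510 on resistant predose arrays. Every susceptible postdose array was above each of the other 15 arrays, and the resistant groups overlapped over most of their ranges. Lta4h rose 1.63-fold in susceptible rats (log2 difference 0.70, SE 0.16, limma adjusted p = 0.0142), and the log2 difference in resistant rats was -0.04 (95% interval -0.38 to 0.31, limma adjusted p = 0.95). The susceptible call was lost with a replicate block (limma adjusted p = 0.0665) and with the methods' t-test and adjustment (adjusted p = 0.0607).

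Ltb4r encodes BLT1, the high-affinity receptor for leukotriene B4 on neutrophils and other leukocytes. It had 10690, 4840, 9879, 3611 and 4083 on susceptible postdose arrays 1 to 5, against 814.6, 1448, 816.9, 829.9 and 880.3 on susceptible predose arrays. Resistant postdose arrays had 2077, 3285, 2736, 3010 and 2152, against 827.2, 1609, 164.5, 1043 and 893.9 on resistant predose arrays. The groups did not overlap in either sub-group, and every susceptible postdose array was above every resistant postdose array. Resistant predose array 3, at 164.5, was the one array at or below the highest trp signal. Ltb4r rose 6.40-fold in susceptible rats (log2 difference 2.68, SE 0.46, limma adjusted p = 0.00187) and 3.58-fold in resistant rats (log2 difference 1.84, SE 0.46, limma adjusted p = 0.0267). Without resistant predose array 3 the resistant log2 difference was 1.31 and passed (limma adjusted p = 0.0311). It did not pass without resistant postdose array 2, 3 or 4, with log2 differences of 1.76, 1.82 and 1.79 and limma adjusted p of 0.0669, 0.0522 and 0.0555.

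Alox15 in rodents encodes the leukocyte-type 12/15-lipoxygenase, outside the leukotriene branch. Susceptible postdose arrays 1 to 5 had 64420, 78120, 40380, 43700 and 99300, against 42970, 29010, 43890, 87010 and 98530 on susceptible predose arrays. Resistant postdose arrays had 78910, 39520, 36350, 84040 and 72020, against 36300, 38200, 43020, 47040 and 62490 on resistant predose arrays. Its levels spread more than 2-fold within both susceptible groups and within the resistant postdose group, and the groups overlapped. The log2 differences were 0.18 in susceptible rats (95% interval -0.55 to 0.92) and 0.39 in resistant rats (95% interval -0.34 to 1.13), with limma adjusted p of 0.842 and 0.648. The 4 eosinophil markers summed to 1889 to 4608 on susceptible postdose, 2136 to 3043 on susceptible predose, 2776 to 3797 on resistant postdose and 2236 to 3546 on resistant predose arrays, and none of them passed in either sub-group.

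**Figure D2:**
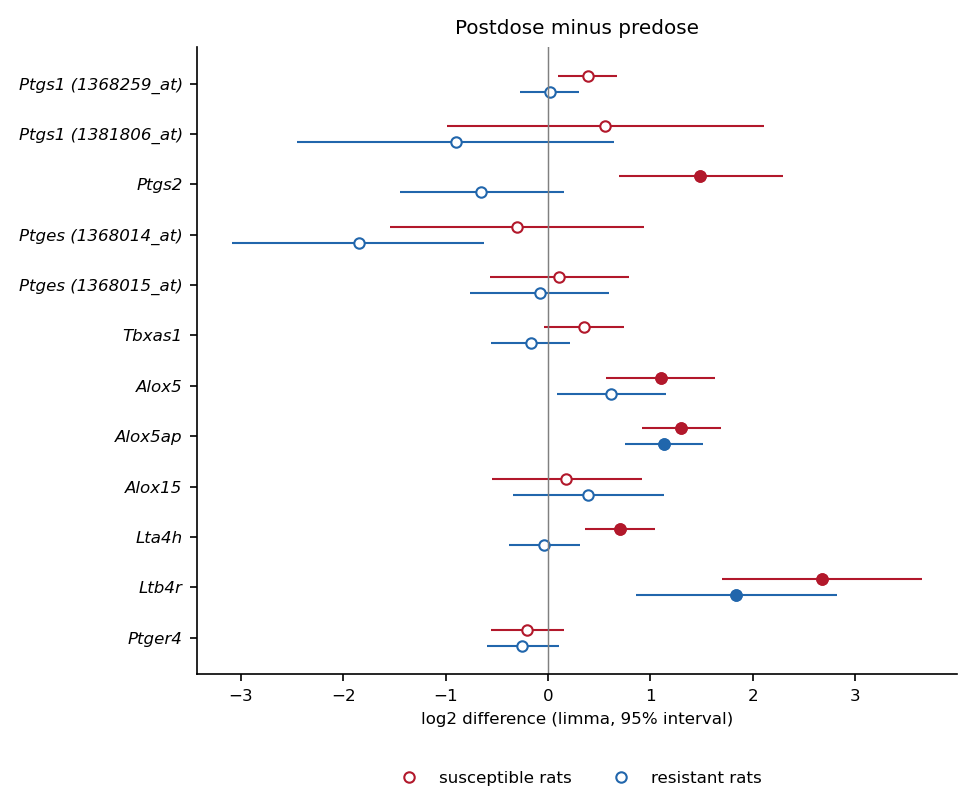
Postdose minus predose log2 difference of each probe set (point) with its 95% interval (line) in susceptible rats (upper, red) and resistant rats (lower, blue), 5 arrays per group; filled points passed a limma adjusted p of 0.05. Filled are Ptgs2, Alox5, Alox5ap, Lta4h and Ltb4r in susceptible rats and Alox5ap and Ltb4r in resistant rats.

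Markers of the neutrophil and natural killer cell lists rose in both sub-groups. Of the leukotriene genes, Alox5ap and Ltb4r passed in both, and Alox5 and Lta4h in susceptible rats only. Over all probe sets 6.66% passed in susceptible rats and 5.11% in resistant rats. Of the 10 neutrophil markers 5 (S100a8, S100a9, Csf3r, Cxcr2 and Padi4) rose in susceptible rats and 4 (S100a8, Csf3r, Cxcr2 and Padi4) in resistant rats, and none fell, with median log2 changes of 0.67 in susceptible rats and 0.57 in resistant rats. All 7 natural killer cell markers rose in both sub-groups, with median log2 changes of 1.13 in susceptible rats and 1.14 in resistant rats. Of the 5 B cell markers 2 (Blnk and Cd22) fell in susceptible rats and none passed in resistant rats, and of the 12 T cell markers Cd4 fell in susceptible rats and Cd28 in resistant rats. Cxcr2, a chemokine receptor of neutrophils, rose by 2.21 on the log2 scale in susceptible rats and by 1.48 in resistant rats, and Csf3r, the receptor for granulocyte colony-stimulating factor, by 1.73 in susceptible rats and 1.50 in resistant rats. The 10 monocyte markers summed to 467200 to 641400 on susceptible postdose and 482700 to 533800 on susceptible predose arrays. On resistant arrays they summed to 404900 to 591600 postdose and 386300 to 569100 predose. The largest part of these sums came from Lyz2, with mean signals of 381600 on susceptible postdose and 346600 on susceptible predose arrays. The sums therefore do not speak for all 10 markers. In susceptible rats Csf1r, Cd68, Cd14 and Cx3cr1 averaged lower postdose than predose, and the other monocyte markers higher. Of the 10, 1 rose and 2 fell in susceptible rats, and none passed in resistant rats. Susceptible postdose arrays 1 and 3 had the highest neutrophil sums of all 20 arrays, 1228000 and 1087000, and were also the highest for Ptgs2, Alox5, Alox5ap and Ltb4r. These 2 arrays carried the raised hepatocyte signal as well. When both were left out, a choice made after the data had been seen, 2 of the 12 probe sets still rose in susceptible rats, Alox5ap (log2 difference 1.03, limma adjusted p = 0.00616) and Ltb4r (2.15, limma adjusted p = 0.0347). Ptgs2, Alox5 and Lta4h then had log2 differences of 1.18, 0.72 and 0.66 and limma adjusted p of 0.205, 0.146 and 0.0915. Over all probe sets 730 of 30704 passed in this fit, against 2048 of 30747 with all arrays. Because the arrays left out were the highest for Ptgs2, Alox5, Alox5ap and Ltb4r, smaller differences for these genes were fixed by the choice. The fit therefore says nothing about a cause. The part of the numbers of blood cells or of liver RNA in the postdose changes was not tested.

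In groups that did not overlap, 4 of the 12 probe sets separated susceptible postdose from susceptible predose arrays, all upward (Alox5, Alox5ap, Lta4h and Ltb4r), where 6.83% of all probe sets did so in either direction. In resistant rats 3 of the 12 did, Alox5ap and Ltb4r upward and Ptges 1368014_at downward, against 6.76% of all probe sets.

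Whether the postdose change differed between susceptible and resistant rats was tested directly, and none of the 12 probe sets passed, and 0% of all probe sets did. At an unadjusted p under 0.05, 2 of the 12 and 2122 of all 30747 probe sets (6.9%) were found. The 2 were Ptgs2, for which the susceptible change minus the resistant change was 2.14 on the log2 scale (95% interval 1.0 to 3.28, unadjusted p = 0.000972, limma adjusted p = 0.33), and Lta4h, for which it was 0.74 (95% interval 0.25 to 1.23, unadjusted p = 0.0054, limma adjusted p = 0.482). For Alox5ap, which rose in both sub-groups, the difference between the changes was 0.17 (95% interval -0.38 to 0.71), and for Ltb4r it was 0.84 (95% interval -0.55 to 2.22). For Alox5, which passed in susceptible rats and not in resistant rats, the difference was 0.48 (95% interval -0.27 to 1.24, limma adjusted p = 0.851). The calls of Ptgs2, Alox5 and Lta4h in susceptible rats are therefore not shown to be particular to them.

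**Figure D3:**
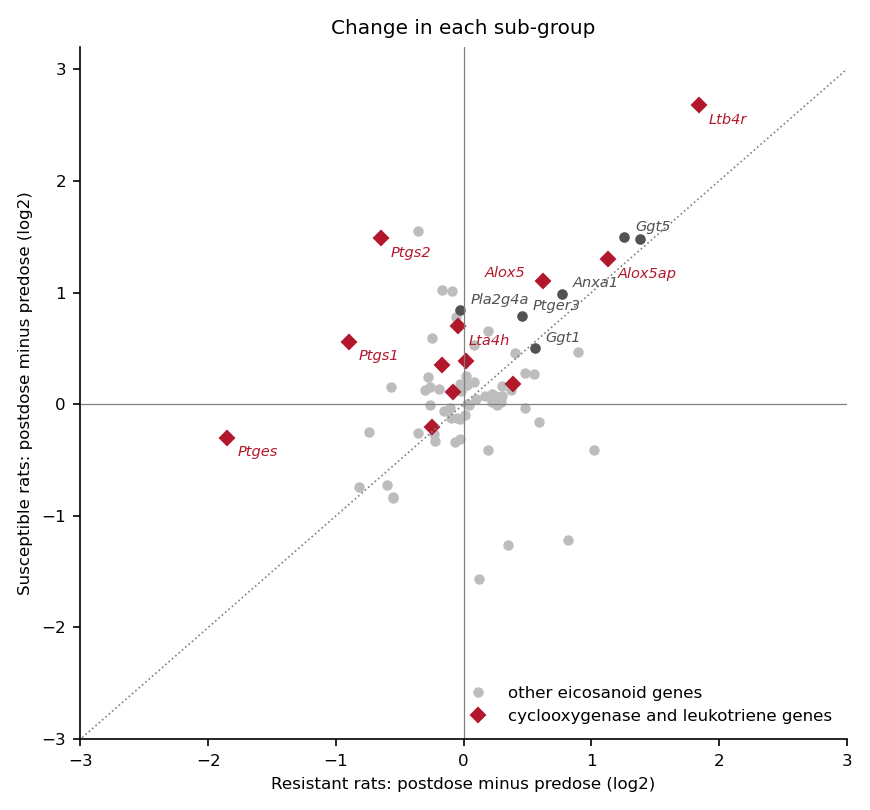
Postdose minus predose log2 difference in susceptible rats (vertical) against that in resistant rats (horizontal) for the 12 probe sets (red diamonds) and 63 probe sets of other eicosanoid genes (circles, dark where they rose); the dotted line marks equal change. Ptgs2 lies at 1.49 in susceptible and -0.65 in resistant rats, and Alox5ap lies near the line at 1.30 and 1.13.

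Between susceptible and resistant rats after APAP, none of the 12 probe sets passed, and 0.143% of all probe sets did, 44 in number and 7 to 89 with each array left out in turn. At an unadjusted p under 0.05 there were 4, all with a positive difference (susceptible minus resistant), against 2822 of 30747 (9.18%) over all probe sets. The ratio of susceptible to resistant rats was 2.97 for Ptgs2 (log2 difference 1.57, SE 0.38, unadjusted p = 0.000708, limma adjusted p = 0.116) and 1.56 for Lta4h (log2 difference 0.64, SE 0.16, unadjusted p = 0.00109, limma adjusted p = 0.143). It was 2.29 for Ltb4r (log2 difference 1.19, limma adjusted p = 0.42) and 1.47 for Tbxas1 (log2 difference 0.55, limma adjusted p = 0.305). The arrays of the 2 sub-groups did not overlap for Ptgs2, Lta4h and Ltb4r, 3 of the 12, where 2.23% of all probe sets did not. With limma's spread modelled on mean signal, Ptgs2 and Lta4h passed (adjusted p = 0.0205 and 0.0314), and the calls over all probe sets went from 44 to 235. None of the 12 passed with a replicate block or with the methods' t-test and adjustment. Without both susceptible postdose arrays 1 and 3, chosen after the data had been seen, the log2 differences were 1.26 for Ptgs2, 0.60 for Lta4h and 0.67 for Ltb4r. Their limma adjusted p were then 0.609, 0.553 and 0.931.

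Before APAP, none of the 12 probe sets passed (0.00329% of 30416 probe sets did), none had an unadjusted p under 0.05 (1138 of all, 3.74%, had), and none separated the groups (0.529% of all did). The largest differences, susceptible minus resistant, were those of Ptges 1368014_at, with a log2 difference of -0.90 (95% interval -2.25 to 0.46), and of Ptgs2, with -0.57 (95% interval -1.53 to 0.39). For Alox5, Alox5ap, Lta4h and Ltb4r the predose log2 differences, susceptible minus resistant, were -0.01, 0.01, -0.10 and 0.36, with 95% intervals of -0.56 to 0.55, -0.36 to 0.39, -0.44 to 0.25 and -0.86 to 1.57.

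**Figure D4:**
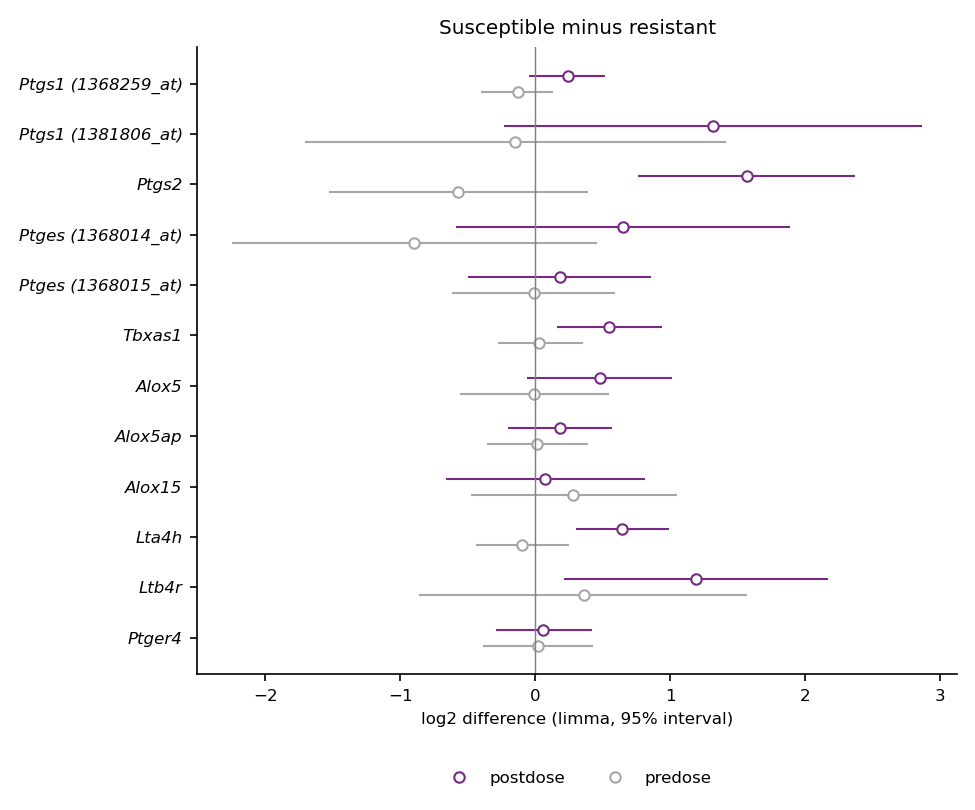
Susceptible minus resistant log2 difference of each probe set with its 95% interval, after APAP (upper, purple) and before APAP (lower, grey), 5 arrays per group. All points are open because none passed; after APAP the intervals of Ptgs2, Tbxas1, Lta4h and Ltb4r lie above 0.

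Other genes of eicosanoid synthesis, breakdown, transport and sensing were taken from a list of 58, of which 49 were on the array, with 63 probe sets tested. In susceptible rats 6 of these probe sets rose, of 5 genes, and none fell, a share of 9.52% against 6.66% of all probe sets. In resistant rats 4 rose, of 3 genes, and none fell, a share of 6.35% against 5.11%. Over the 63 probe sets the median log2 change was 0.07 in susceptible rats and 0.03 in resistant rats, beside 0.01 and -0.01 over all probe sets. No probe set of the list passed in the comparisons between the sub-groups.

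Upstream of both branches, Pla2g4a, the cytosolic phospholipase that frees arachidonic acid, had 6520, 3995, 5419, 7785 and 5789 on susceptible postdose arrays 1 to 5, against 3231, 4164, 2230, 3090 and 3708 on susceptible predose arrays. On resistant arrays it had 2815, 3628, 4012, 2117 and 2347 postdose, against 2465, 3449, 2996, 3521 and 2522 predose. Only susceptible predose array 2 reached above the lowest susceptible postdose array, array 2, and the resistant groups overlapped. Pla2g4a rose in susceptible rats (log2 difference 0.84, SE 0.21, limma adjusted p = 0.0226), while the resistant log2 difference was -0.03 (95% interval -0.48 to 0.42). After APAP the log2 difference between susceptible and resistant rats was 0.99, short of the threshold (limma adjusted p = 0.0758); it passed with quantile normalization (0.042), 1 probe set per gene (0.0466), limma-trend (0.0116) and without susceptible postdose array 2 (0.0438). The difference between the changes, 0.87, did not pass (95% interval 0.24 to 1.51, limma adjusted p = 0.528). Its susceptible call was lost without susceptible predose array 3 or susceptible postdose array 1 or 4 (limma adjusted p of 0.051 to 0.0656). The same call was lost with a replicate block (limma adjusted p = 0.0711) and with only the arrays compared (0.0762). It was lost too with the methods' t-test and adjustment (adjusted p = 0.102) and without both susceptible postdose arrays 1 and 3 (limma adjusted p = 0.125).

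Anxa1, annexin A1, a glucocorticoid-induced protein long known as an inhibitor of phospholipase activity, had 218600 to 311600 on susceptible postdose arrays against 104600 to 159900 on susceptible predose arrays. On resistant arrays it had 198700 to 251100 postdose, against 105500 to 151700 predose. Postdose and predose arrays did not overlap in either sub-group, and Anxa1 rose by 0.99 on the log2 scale in susceptible rats (limma adjusted p = 0.00025) and by 0.77 in resistant rats (limma adjusted p = 0.0022).

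Downstream of leukotriene C4, Ggt5 and Ggt1 encode gamma-glutamyl transferases, which remove glutamate to give leukotriene D4. Both probe sets of Ggt5 separated the groups completely. Probe set 1387729_at had 5552 to 8393 on susceptible postdose arrays against 1423 to 3693 on susceptible predose arrays, and 5775 to 6944 on resistant postdose arrays against 2274 to 3094 on resistant predose arrays. Ggt5 rose by 1.50 and 1.48 on the log2 scale in susceptible rats (limma adjusted p = 0.000131 and 5.12e-05) and by 1.26 and 1.38 in resistant rats (limma adjusted p = 0.000626 and 0.000123), for 1387729_at and 1396208_at. Ggt1 rose by 0.50 in susceptible rats (limma adjusted p = 0.0173) and by 0.56 in resistant rats (limma adjusted p = 0.0106). Its susceptible call was lost without susceptible predose array 4 or susceptible postdose array 1 or 5 (limma adjusted p of 0.0506 to 0.0541). The same call was lost with limma-trend (adjusted p = 0.0531) and with only the arrays compared (limma adjusted p = 0.11). It was lost too with the methods' t-test and adjustment (adjusted p = 0.112) and without both susceptible postdose arrays 1 and 3 (limma adjusted p = 0.075). Ltc4s, leukotriene C4 synthase, had log2 differences of -0.13 in susceptible rats and -0.03 in resistant rats, and neither passed.

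Ptger3 encodes the EP3 receptor for prostaglandin E2. Its probe set 1376977_at had 1361, 966.4, 1758, 1694 and 1377 on susceptible postdose arrays 1 to 5, against 698, 965.2, 753.5, 670.8 and 1016 on susceptible predose arrays, with overlap through predose array 5 alone. It rose in susceptible rats (log2 difference 0.79, SE 0.18, limma adjusted p = 0.0135), and the resistant difference of 0.46 did not pass (limma adjusted p = 0.189). The susceptible call was lost with only the arrays compared (limma adjusted p = 0.0686) and without both susceptible postdose arrays 1 and 3 (0.112). The gene's other probe set, 1369187_a_at, had a log2 difference of -0.31 in susceptible rats (95% interval -1.28 to 0.66), so that the 2 probe sets gave opposite signs and only the first passed.

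**Figure D5:**
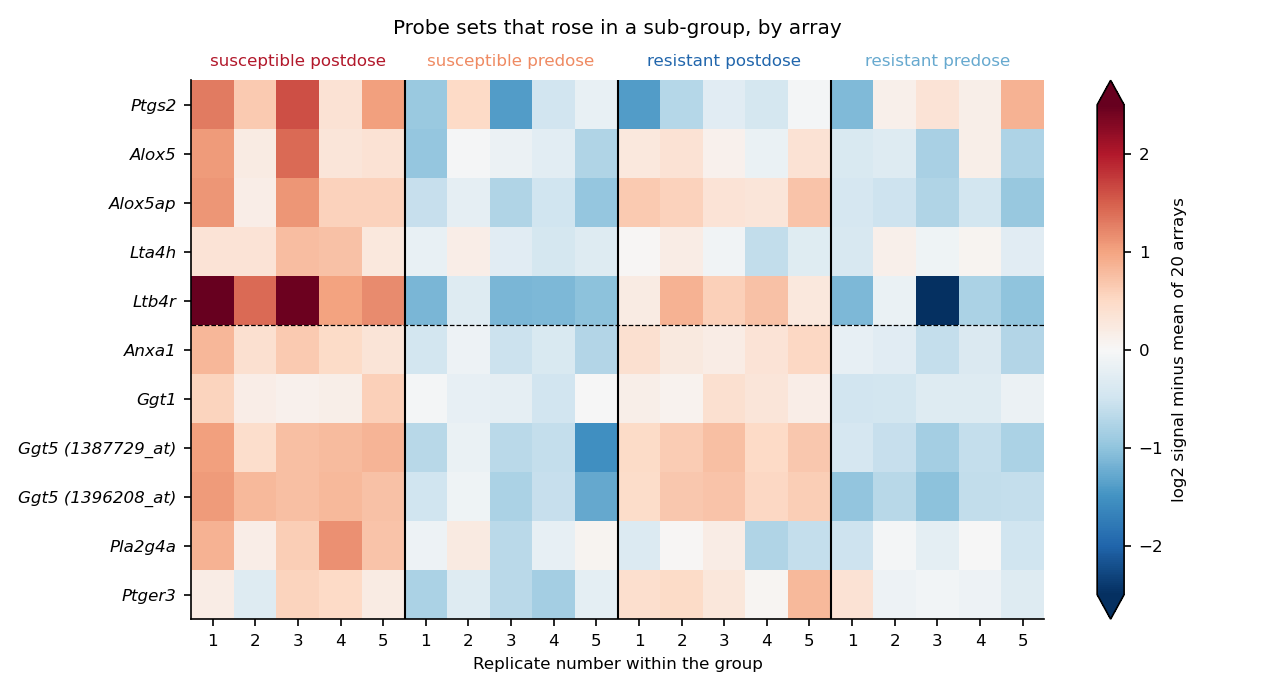
Log2 signal minus the mean of 20 arrays (colour, limited to 2.5 in either direction) for the probe sets that rose in a sub-group, with arrays in columns by group and replicate number; the dashed line divides the cyclooxygenase and leukotriene genes (top) from other eicosanoid genes. Ltb4r is highest on susceptible postdose arrays 1 and 3, at 10690 and 9879, and lowest on resistant predose array 3, at 164.5.

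The probe sets most like each gene that rose were found by Pearson's r of log2 signals over the 20 arrays, among 20658 probe sets with 1 gene symbol, as a description; the arrays share the 4 groups, so that r is also given within groups. Nearest to Ptgs2 were Cxcl2, a neutrophil chemokine (r = 0.88, within groups 0.75), G0s2 (0.87, within groups 0.77) and Ier3, an immediate early gene (0.85, within groups 0.73). Nearest to Alox5 were Adam8 (0.93, within groups 0.90), Ehd1 (0.92, within groups 0.79) and Grk5 (0.92, within groups 0.78). Nearest to Alox5ap were Bst1, Anxa1 and Apobr, each with r = 0.98 and within groups 0.87, 0.86 and 0.88. Nearest to Lta4h were Rab1a (0.92, within groups 0.81), Fkbp2 (0.91, within groups 0.80) and Adipor2 (0.91, within groups 0.82), and nearest to Ltb4r were Plxnc1, Marcks and Crispld2, each with r = 0.93 and within groups 0.75, 0.72 and 0.77. None of the 5 genes that rose was among the 3 nearest of another.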

How the data were processed

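The authors deposited 1 linear intensity per probe set and array; the array medians lie between 187 and 223, the methods name ArrayTrack and a median of 1000 per chip, and the software behind the deposited intensity values is not given in the sources used here. Intensities were divided by the array's median over all probe sets but the 57 controls, multiplied by 1000 and put on the log2 scale. A fit left out the probe sets that stayed under 100 on all of its arrays, which leaves 30747 (30416 for the predose comparison, fitted on the 10 predose arrays). The 4 groups were otherwise fitted together in limma 3.58.1 (R 4.3.3; lmFit, eBayes), with Benjamini-Hochberg adjustment over all probe sets. The labels do not say that equal replicate numbers are 1 rat, although the methods bled the same rats before and after dosing, so arrays were treated as separate samples. The SE, intervals and p of the postdose changes therefore take no account of the same rat giving a predose and a postdose array.

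Named were all probe sets of the members, the genes of a wider eicosanoid list with a probe set past the threshold, and for each member that rose the 3 most correlated probe sets with 1 symbol. Ltc4s, Selp and the single markers of neutrophils, monocytes, B cells and T cells were picked with their values in view. The members and lists were chosen with earlier results of these data known. The susceptible change was also fitted on simulated data (30562 probe sets), drawn as independent normal values. At or above the array median, 33 of 42 log2 changes of 1 and 43 of 43 of 2 were recovered, and below it 7 of 58 and 22 of 57. False calls made up 7 of 112. The simulated fit held far fewer calls than the 2048 of the data and no repeated rats, so its shares need not hold there. Alternatives were quantile normalization, values as deposited, filters, 1 probe set per gene, a replicate block, only the arrays compared, limma-trend, the methods' t-test and leaving out arrays. Promoter letters are RefSeq's. Plots came from matplotlib 3.10.9 (Python 3.11.15). The number of arrays limits the precision.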

Additional observations from a re-analysis of the deposited data

Results flagged for a closer look

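Among 48 groups of 5 arrays (12 probe sets in 4 groups), 2 held an array far from the others on the log2 scale, where chance gives about 1 in 20 groups. Ptgs1 on probe set 1381806_at was lowest on susceptible postdose array 2, at 167, with the next array at 523.4. Ltb4r was highest on susceptible predose array 2, at 1448, with the next array at 880.3, and both lay below every susceptible postdose array.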

How the results depend on the processing

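Of 2500 recomputed values of single probe sets, 2443 kept their side of the threshold (2372 with the same sign, and 71 not called under either setting whose sign changed), 47 lost the call, 10 gained it and 0 called values changed direction. Ptger3 1376977_at also lost its susceptible call with a replicate block and with the methods' t-test and adjustment (adjusted p = 0.0796 and 0.0941). The count of the 12 probe sets that rose in susceptible rats, 5, was 3 with a replicate block (Ptgs2, Alox5ap and Ltb4r), 3 with only the arrays compared (Alox5ap, Lta4h and Ltb4r), 2 with the methods' t-test and adjustment, 2 without both susceptible postdose arrays 1 and 3 (added after seeing the data) and 4 to 6 with each array left out in turn. The count in resistant rats, 2, was 1 (Alox5ap) with a replicate block, with only the arrays compared and with the methods' t-test and adjustment, and 1 to 2 with each array left out in turn. Between susceptible and resistant rats after APAP, the count of 0 became 2 with limma-trend (Ptgs2 and Lta4h) and 2 at the methods' t-test p and 2-fold without adjustment (Ptgs2 and Ltb4r). The counts for the difference in change and before APAP stayed at 0 under all alternatives run. The cause of these shifts was not tested, except that the fits on the arrays compared and without arrays 1 and 3 hold fewer arrays.

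Over all probe sets, the 2048 called in susceptible rats became 1290 with a replicate block, 910 with only the arrays compared, 578 with the methods' t-test and adjustment, 1012 at 2-fold without adjustment, 730 without both arrays 1 and 3 and 1332 without susceptible postdose array 3. The 1570 called in resistant rats became 970, 968, 729 and 954 under the first 4 of these, 958 with 1 probe set per gene, 967 without resistant predose array 3 and 1046 without resistant postdose array 2. After APAP the 44 between sub-groups became 73 with quantile normalization, 235 with limma-trend, 559 at 2-fold without adjustment, 0 with a replicate block and with the methods' t-test and adjustment, and 5 without both susceptible postdose arrays 1 and 3. Single arrays moved it too: it was 17, 7, 18 and 8 without resistant postdose array 1, 2, 3 or 4, 9 and 13 without susceptible postdose array 1 or 3, 89 without susceptible postdose array 4, and 73 and 83 without resistant predose array 2 or 5. The 0 for the difference in change became 26 with limma-trend and 2 without resistant predose array 1. The 1 before APAP became 370 at 2-fold without adjustment and was 0 to 2 with each array left out in turn.

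Equal replicate numbers did not pair the arrays: over 10 pairs the correlation of deviations from the group means lay between -0.03 and 0.05, and 3 arrays correlated best with their own number. Ptges 1368014_at and Ptgs1 1381806_at lay near the trp signal, which limits what these probe sets can show. The other probe set of each gene, Ptges 1368015_at and Ptgs1 1368259_at, lay above the highest trp signal on all 20 arrays.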
